A study of Homo sapiens with 12 samples.

Results

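The loci described here are the small nuclear RNA (snRNA) genes and gene copies of the U1, U2, U4, U5, U6 and U7 families that were present at a mean of at least 1 TPM in the 4 libraries of the U11 knockout comparison. TPM is the level of a transcript scaled by its length and to one total per library. Of 60504 genes listed, 1748 carried a name of these families, and 46 of them reached the minimum: 7 of the U1 family, 3 of U2, 5 of U4, 8 of U5, 21 of U6 and 2 of U7. The levels in those 4 libraries chose the loci, so these levels are given as a description. The 3 loci just inside the minimum were RNU6-762P with a mean of 1.01 TPM, RNU7-49P with 1.01 TPM and RNU6-90P with 1.05 TPM, and the 3 just outside were RNU6-564P just under 1 TPM, RNU6-48P with 0.970 TPM and RNU2-28P with 0.955 TPM.

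RNA was sequenced from T24, a cell line of human bladder cancer, and 12 libraries were used here. The knockout comparison had 2 libraries under the label U11 knockout and 2 control libraries labelled untreated, and all 4 belonged to a single library batch. The overexpression comparison set 6 libraries labelled U11 overexpression against 2 controls labelled untreated, spread over 2 further batches that each held 1 control and 1 library of each of the lines 79, 86 and 87. Per the methods of the study, the knockout was made with 2 guide RNAs and Cas9 from a plasmid, with a control guide vector beside it, and single-clone lines were selected by their U11 level. The overexpression was made with a U11 plasmid, also with selection of single clones, so that each group rests on few clones. The labels do not say whether libraries of a group came from separate cultures, so the tests measure the spread between these libraries, which may be technical.

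Spliceosomal snRNAs are short noncoding RNAs that act as the RNA core of the machine that removes introns. U1 pairs with the 5′ splice site, U2 pairs with the branch point, U5 holds the exon ends with a conserved loop, and U6 is carried in by U4 and then forms the catalytic centre with U2. U6 is transcribed by RNA polymerase III and binds LSM proteins, while the others are transcribed by RNA polymerase II and bind a ring of Sm proteins. U7 is not part of the spliceosome. It guides the processing of histone mRNA at the 3′ end, so the name of a spliceosomal group does not hold for the 2 U7 loci. U11, the target of the study, belongs to the minor spliceosome and is no member here. Each of these families has a few active genes and many copies scattered over the genome, most of them named as pseudogenes. Of the 46 loci, 30 had a name ending in P, the mark of a pseudogene. RNU2-2P, the most abundant of the 46, and RNU1-27P, identical to RNU1-1, are among them. The name alone is thus no guide to level or sequence.

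The sequences of the main loci are shown because the copies of a family differ little or not at all, and that limits what a level per locus can mean. All coordinates are those of the deposited files on hg38, and the sequences were read from the hg38 genome in the 5′ to 3′ direction of the RNA. In the U1 family, 6 of the 7 loci (RNU1-1, RNU1-2, RNU1-3, RNU1-4, RNU1-27P and RNU1-28P) had the same 164 bases. RNU1-3 stands for them, at chr1:16666785-16666948 (minus strand). RNU1-39P matched 151 of 165 aligned positions of RNU1-1 and lay in an untranslated exon of ZNF354B on the same strand. Its first 30 bases are at chr5:178884715-178884744 (plus strand). Capitals mark the bases that pair with the 5′ splice site, which both loci carried.
RNU1-3: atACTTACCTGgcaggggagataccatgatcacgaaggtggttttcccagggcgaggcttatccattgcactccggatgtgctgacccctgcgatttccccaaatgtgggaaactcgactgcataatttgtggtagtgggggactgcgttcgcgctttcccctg
RNU1-39P: atACTTACCTGgcagggaagattaccatga

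In the U2 family, RNU2-2P lay in an annotated untranslated exon of WDR74 on the same strand, and the stretch shown is at chr11:62841760-62841789 (minus strand). RNU2-64P matched 167 of 191 aligned positions of RNU2-2P, and the same stretch of it is at chr3:73111012-73111041 (plus strand). Capitals mark the bases at positions 33 to 38, where RNU2-2P carries the letters that pair with the branch point. The 2 stretches differed in this place.
RNU2-2P: ctaagatcaagtGTAGTAtctgttcttatc
RNU2-64P: ctaagatcaagtCTAGTAactgttcttatc

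The U4 genes RNU4-2, at chr12:120291763-120291903 (minus strand), and RNU4-1, at chr12:120293097-120293237 (minus strand), were identical at 137 of 141 positions and overlapped no other annotated gene. Capitals mark the positions at which they differ.
RNU4-2: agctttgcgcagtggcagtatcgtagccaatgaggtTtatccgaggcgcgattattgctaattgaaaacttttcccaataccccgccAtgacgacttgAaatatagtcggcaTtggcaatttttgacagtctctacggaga
RNU4-1: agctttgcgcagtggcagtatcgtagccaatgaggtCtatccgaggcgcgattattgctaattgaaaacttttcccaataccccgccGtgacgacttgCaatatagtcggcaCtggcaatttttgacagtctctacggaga

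The U5 family was the most varied among the abundant loci. Against RNU5A-1, the identity was 94.0% for RNU5B-1, 88.3% for RNU5E-1, 83.9% for RNU5F-1, 83.1% for RNU5A-8P and 81.9% for RNU5D-1. In the U6 family, 7 of the 21 loci (RNU6-1, RNU6-2, RNU6-3P, RNU6-4P, RNU6-5P, RNU6-6P and RNU6-9) had the same 107 bases. RNU6-26P, in an intron of DCBLD2 on the same strand, had an identity of 95.3% with them. RNU6-638P, in an intron of CYTH1 on the same strand, had an identity of 72.9%.

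The gene of functional U7 is RNU7-1, shown from position 5 to 34 at chr12:6943820-6943849 (plus strand). It was listed at a mean of 0.0753 TPM in the knockout comparison and was therefore no member. The more abundant U7 locus, RNU7-75P, matched 52 of 63 aligned positions of RNU7-1, and the same stretch is at chr5:37327139-37327168 (plus strand) in an intron of NUP155 on the opposite strand. Capitals mark the binding site of the U7 Sm ring, which was the same in both.
RNU7-1: gttacagctcttttagAATTTGTCTAGtag
RNU7-75P: gttacggctgttttagAATTTGTCTAGcag

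The level of the 46 loci fell into a steep order in the knockout comparison. RNU2-2P stood first with a mean of 5088 TPM, then RNU1-3 with 2446 TPM and RNU1-1 with 1124 TPM, and these 3 loci held 81.6% to 85.9% of the summed level of the 46 loci in each of the 4 libraries. The other loci of at least 10 TPM were RNU4-2, RNU1-4, RNU4-1, RNU1-27P, RNU1-2, RNU1-28P and 7 of the 8 U5 loci. That left 30 loci between 1.01 and 6.06 TPM, among them every U6 locus. The U6 median was 1.28 TPM, against 27.3 TPM for U5 and 256 TPM for U1. These medians are over the loci that passed the minimum, 21 of 1285 for U6, 8 of 31 for U5 and 7 of 121 for U1. They do not compare the amounts of these snRNAs in the cells. The mean read depth over a locus (coverage) was at least 73.5 in every library for the 16 loci of 10 TPM or more and went down to 0.588 for the loci under 2 TPM, so values of the low loci rest on few reads.

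The same loci were almost absent from the 8 libraries of the overexpression comparison. The 46 loci summed to 9116 to 11751 TPM in the 4 libraries of the knockout comparison, 0.912% to 1.18% of all TPM, and to 21.3 to 32.6 TPM in the other 8 libraries. Every locus was above 0 in all 4 libraries of the knockout comparison, while 12 to 29 of the 46 were at 0 in each of the other 8. RNU2-2P fell within 0.0419 to 1.11 TPM in those 8 libraries and RNU1-3 within 0.111 to 0.390 TPM. RNU4-1, RNU2-64P, RNU5E-1, RNU5B-1 and RNU5A-8P were listed at 0 in all 8. Choosing the loci by their level in the 4 libraries favours such a difference, so no test of it is given. The labels name polyA RNA for all 12 libraries and the methods of the study name removal of ribosomal RNA, and which was used for which batch was not tested. Batch and comparison cannot be told apart here.

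**Figure D1:**
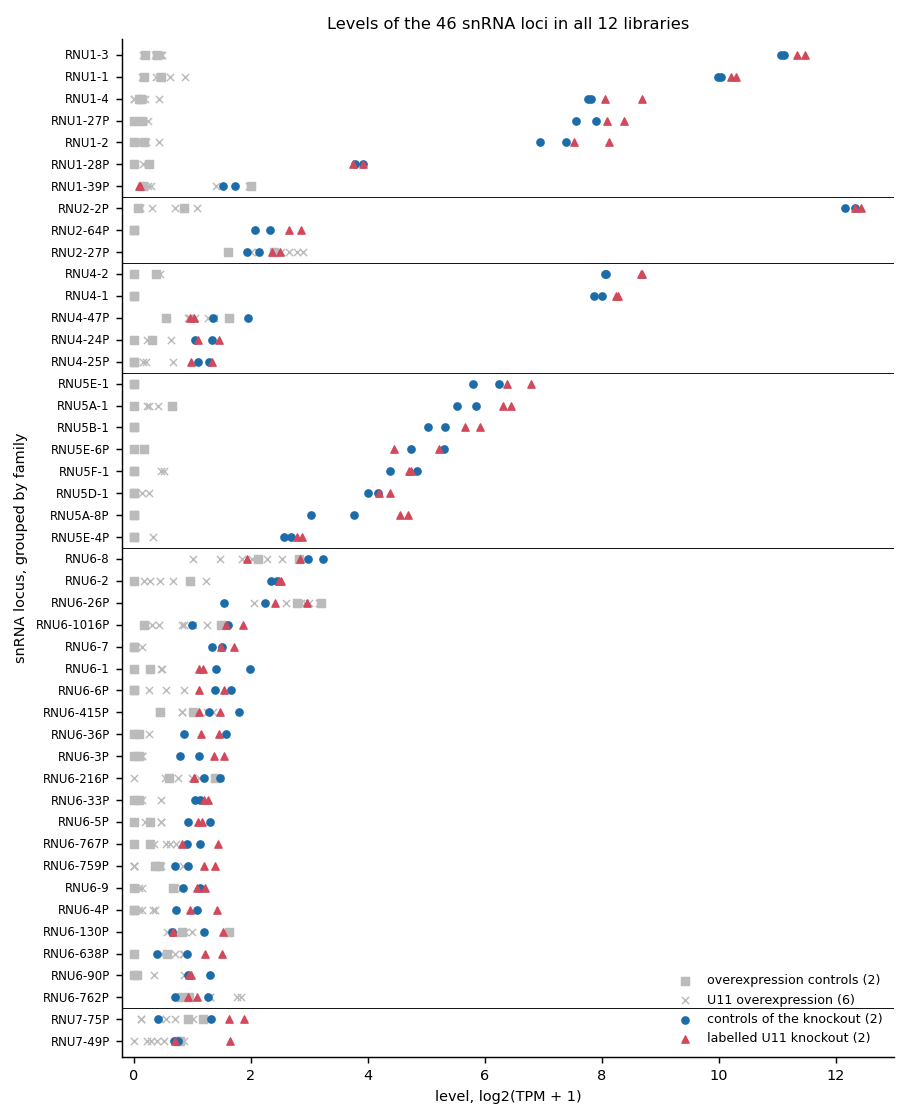
Level of each of the 46 snRNA loci (vertical axis, grouped by family and ordered by mean) in each of the 12 libraries (horizontal axis, log2(TPM + 1)); circles are the 2 controls of the knockout, triangles the 2 libraries labelled U11 knockout, and grey marks the 8 libraries of the overexpression comparison. The abundant U1, U2, U4 and U5 loci stand far to the right in the knockout comparison only, whereas RNU6-26P, RNU2-27P and a few other low loci had like levels in all 12 libraries.

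Only 6 of the 46 loci had a mean of at least 1 TPM in the 8 libraries of the overexpression comparison: RNU6-26P with 6.24 TPM, RNU2-27P with 4.36 TPM, RNU6-8 with 3.30 TPM, RNU6-762P with 1.41 TPM, RNU4-47P with 1.16 TPM and RNU1-39P with 1.03 TPM. None of them belonged to the 16 loci of at least 10 TPM. RNU6-26P (DCBLD2), RNU6-762P (NIF3L1) and RNU1-39P (ZNF354B) lay within an annotated protein-coding gene and on its strand, and RNU4-47P (SEC14L1) lay within such a gene on the opposite strand. The sources used here do not say whether strand was kept in counting, so reads of such a locus and of the gene around it cannot be told apart. RNU6-8 overlapped no annotated gene. Within the U6 family the close and the diverged copies differed in place, and in their median level in the 8 libraries of the overexpression comparison. In the knockout comparison both medians lay near the minimum of 1 TPM that chose the loci. The 11 U6 loci with an identity of at least 99% to RNU6-1 had a median of 1.43 TPM in the knockout comparison and 0.138 TPM in the other 8 libraries, and 2 of them lay on the strand of an annotated gene. The 10 U6 loci with less identity had medians of 1.12 and 0.848 TPM, and 8 of them lay on the strand of an annotated gene. These are descriptions of loci chosen by level. RNU6-8 is of the first kind, and its exact copy RNU6-7 lies nearby on the other strand of the same chromosome and had a mean of 0.0123 TPM in these 8 libraries, against 1.85 TPM and 6.06 TPM for RNU6-7 and RNU6-8 in the knockout comparison.

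The abundant loci shared letters in front of their start that the rule did not use. Genes for snRNAs carry a proximal element that the SNAPc complex binds and, farther upstream, a distal element that often holds the octamer bound by OCT1. The letters ACCNT, on the strand of the locus and starting 55 to 65 bases before it, were found at all 16 loci with a mean of at least 10 TPM and at 6 of the 30 below. This window was chosen after the upstream sequences of the members had been seen. The 16 loci are also not 16 separate sequences. RNU1-3 and RNU1-4 were identical over the 250 bases before the start, and so were RNU1-27P and RNU1-28P. RNU1-2 matched RNU1-3 and RNU1-4 at 248 of them. The same search found the letters at 3.31% of all 60504 genes and at 5.09% of the 1748 loci of these names. The octamer ATGCAAAT, searched on both strands in the 250 bases before the start, was found at 13 of the 46 loci. It was found at 7 of the 8 U5 loci, 5 of the 21 U6 loci and 1 of the 5 U4 loci. No U1, U2 or U7 locus had it, so the 3 most abundant loci did not. The share was 2% of all genes and 3.26% of the 1748 loci of these names. The 80 bases before RNU1-3 are at chr1:16666949-16667028 (minus strand), those before RNU4-2 at chr12:120291904-120291983 (minus strand), those before RNU5A-1 at chr15:65295971-65296050 (plus strand) and those before RNU6-1 at chr15:67840046-67840125 (minus strand), with ACCNT in capitals. A match is a description of these letters and does not show binding.
RNU1-3 upstream: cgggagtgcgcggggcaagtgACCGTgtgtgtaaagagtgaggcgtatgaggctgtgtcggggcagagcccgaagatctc
RNU4-2 upstream: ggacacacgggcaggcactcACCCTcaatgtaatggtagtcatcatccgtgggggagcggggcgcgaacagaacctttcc
RNU5A-1 upstream: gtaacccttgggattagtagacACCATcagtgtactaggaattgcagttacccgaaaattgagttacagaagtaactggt
RNU6-1 upstream: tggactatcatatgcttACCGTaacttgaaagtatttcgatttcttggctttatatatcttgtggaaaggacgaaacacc

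**Figure D2:**
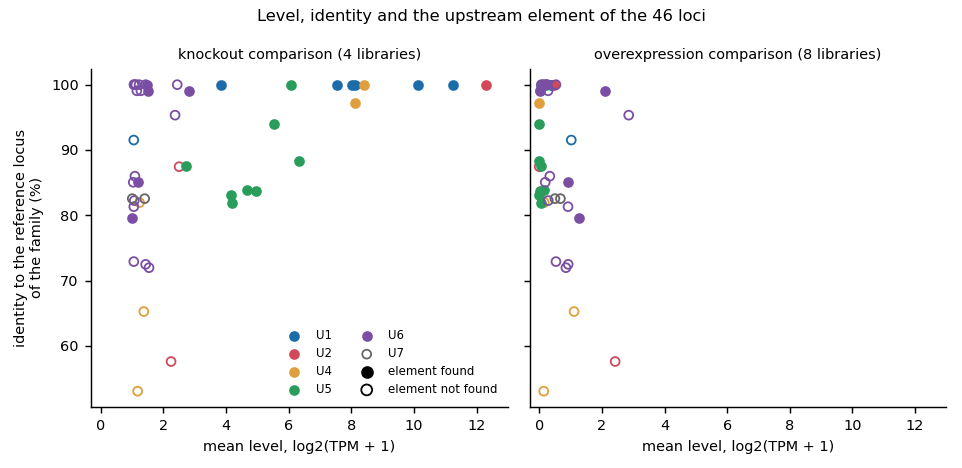
Identity of each of the 46 loci to the reference locus of its family (vertical axis, percent; RNU1-1, RNU2-2P, RNU4-2, RNU5A-1, RNU6-1 and RNU7-1) against its mean level (horizontal axis, log2(TPM + 1)) in the knockout comparison (left) and the overexpression comparison (right). Filled points are loci with ACCNT starting 55 to 65 bases before the start; all 16 loci of at least 10 TPM are filled, and no such locus keeps its level in the right panel.

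Copies with the same sequence were given very different levels. RNU1-3 and RNU1-4 were identical over the gene, over all 5000 bases searched before it and over 2527 bases after it, and yet their means were 2446 and 279 TPM, a ratio of 8.77. RNU1-27P and RNU1-28P were identical over the gene, 1160 bases before it and 979 bases after it, and their means were 256 and 13.4 TPM, a ratio of 19.2. RNU1-1 and RNU1-3 matched at 169 of the 250 bases before the start, so the surrounding sequence differs for that pair. Reads that lie inside identical stretches cannot be assigned by sequence, so the levels of the single copies are uncertain and the sums over a family are given beside them. Further U1 copies carried other names: 12 loci named RNVU1, U1 or U2 reached 1 TPM and summed to 2235 TPM, 1705 TPM of it at RNVU1-7, and they are not part of the sums.

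The whole series bears on the comparison in a few points. Controls of the knockout had 21.4 and 23.8 TPM of U11, summed over its 2 listed entries, whereas the knockout label went with 31.6 and 37.4 TPM, so the level goes against that label. Line 87 had 61.9 and 53.6 TPM of U11, line 86 had 3.98 and 3.72 TPM, line 79 had 0.183 and 0.412 TPM, and the overexpression controls had 0.0334 and 0.623 TPM. The level of line 79 thus lay within the range of those controls and does not bear out the overexpression label. In the batch of control 1 it was above the control (0.183 against 0.0334 TPM). In the batch of control 2 it was below the control (0.412 against 0.623 TPM). By quantitative PCR, the paper reports U11 as significantly lower in its knockout line and significantly higher in its overexpression line than in unchanged T24. Aligned bases ran from 9.07 to 15.3 gigabases per library. Epithelial keratins were present in all libraries (4 of 4 genes, summed to 1817 to 8930 TPM). Of 9 urothelial markers, GATA3, PPARG and FOXA1 reached 1 TPM, while the uroplakins, KRT5 and KRT20 did not. None of 9 markers of other cell types reached 1 TPM. Histone cluster genes, whose mRNA mostly has no polyA tail, summed to 27660 to 34280 TPM in the 4 libraries of the knockout comparison and to 103 to 180 TPM in the other 8.

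The knockout comparison asked how loss of U11 changes gene expression, and here it was read for the snRNA loci, with the libraries named by their label. The summed levels of U1, U4 and U5 were higher in both libraries labelled U11 knockout than in both controls. U1 summed to 3799 and 3787 TPM in the controls and to 4503 and 5135 TPM under the label, a ratio of 1.27. U4 summed to 501 and 526 TPM in the controls and to 725 and 711 TPM under the label, a ratio of 1.40. U5 summed to 203 and 271 TPM and to 302 and 367 TPM, a ratio of 1.41. All 3 ratios stayed above 1 with FPKM and with median ratio scaling. The U2 sum was 4578 and 5142 TPM against 5165 and 5499.7 TPM, a ratio of 1.10 that became 0.994 when libraries were scaled by the median ratio of genes. The U6 sums overlapped, with 32.4 and 42.6 TPM against 44.8 and 35.0 TPM, a ratio of 1.06 that became 0.990 with FPKM and 0.960 with the median ratio. The 2 U7 loci summed to 2.08 and 1.01 TPM against 4.81 and 2.72 TPM. In bulk libraries of a cell line such as these, a higher level in every cell and a larger share of cells with a high level cannot be told apart. The histone cluster sum moved the other way, with 34280 and 31590 TPM in the controls and 29170 and 27660 TPM under the label, and its part in these ratios was not tested.

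**Figure D3:**
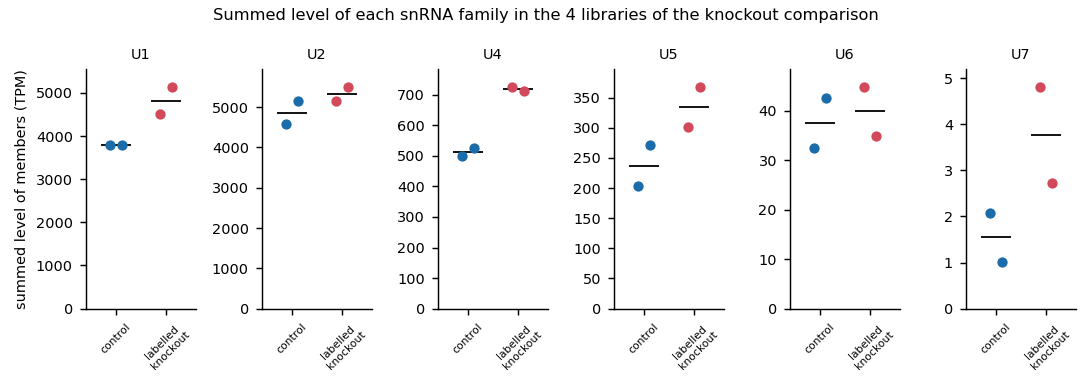
Summed level of the member loci of each family (vertical axes, TPM, each from 0) in the 2 controls and the 2 libraries labelled U11 knockout; points are libraries and bars are means of 2. The groups are apart for U1, U2, U4, U5 and U7, and overlap for U6.

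At the level of loci, 44 of the 46 could be tested with limma; RNU6-90P and RNU7-49P did not reach 1 TPM in 2 libraries. The test is on log2(TPM + 1), and a locus was called at an unadjusted P under 0.05 with a fold of at least 1.5. Of the 44 loci, 8 (18.2%) were called higher in the libraries labelled U11 knockout, where 8.61% of the 14356 genes tested were, and 2 of the 44 (4.55%) were called lower, where 3.15% of all genes were. The 8 were RNU5A-8P, RNU5A-1 and RNU5B-1 of U5, RNU6-26P and RNU6-638P of U6, RNU1-2, RNU4-2 and RNU7-75P, and the 2 were RNU1-39P and RNU4-47P. With an adjusted P under 0.05 over all genes (Benjamini-Hochberg), RNU4-2 stayed higher and RNU1-39P lower, where 4.78% and 2.08% of all genes did. The groups did not overlap for 23 loci that were higher (39.9% of all genes) and 5 that were lower (20.4%). An unadjusted P under 0.05 alone was reached by 20 of the 44, against 30.1% of all genes. The difference was above 0 for 34 of the 44, against 63.7% of all genes, with a median of 0.18 for the loci and 0.11 for all genes. The loci that were apart and higher were unevenly spread over the levels: 13 of the 16 loci of at least 10 TPM, 5 of the 6 from 2 to 10 TPM and 5 of the 24 under 2 TPM. Scaling by the median ratio moved the median of all genes to -0.02 and the share of calls that were higher from 73.2% to 49.9%, and the calls of loci became 3 higher and 4 lower. Of the 46 loci, 11 had a mean under 1 TPM in 1 of the groups and so were chosen through the other group. RNU1-39P, RNU4-47P, RNU6-638P and RNU7-75P were among them, so their calls are partly set by the choice. Single libraries weighed on the counts: 3 loci were called higher without control 1, 14 without control 2 and 3 without the second library labelled U11 knockout, and 1 was called lower without control 2 or without that second library.

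**Figure D4:**
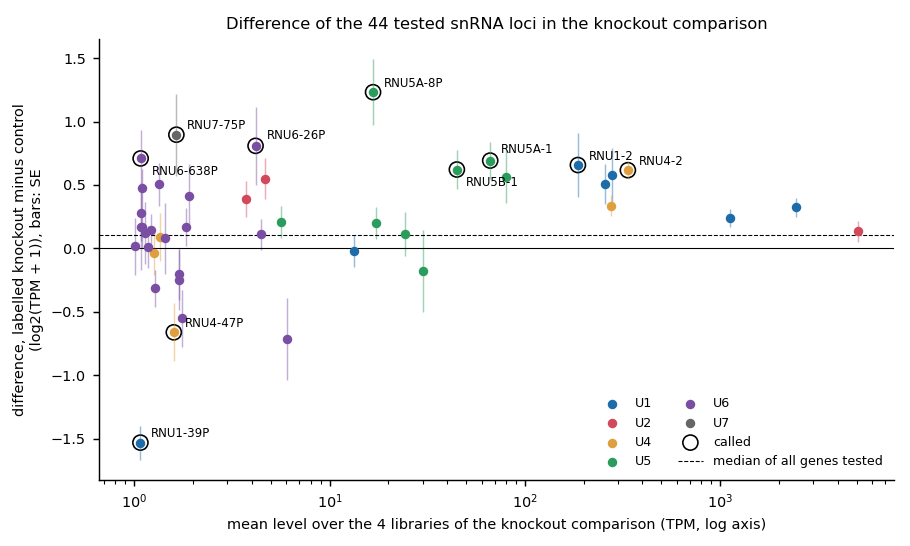
Difference between the libraries labelled U11 knockout and the controls (vertical axis, log2(TPM + 1), bars are the SE from limma) against the mean level over the 4 libraries (horizontal axis, TPM, log axis) for the 44 loci tested, coloured by family; rings mark the 10 called loci and the dashed line is the median of all genes tested, 0.11. Most abundant loci lie above that line, RNU1-39P lies lowest at -1.53 and RNU5A-8P highest at 1.23.

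In the U1 family the abundant copies were higher under the label. RNU1-3 had 2210.3 and 2132 TPM in the controls and 2595 and 2847 TPM under the label, a difference of 0.32 ± 0.07 (SE) on the log2 scale with an adjusted P of 0.0661. RNU1-1 had 1048 and 1013 TPM and then 1178 and 1256 TPM, a difference of 0.24 ± 0.07 with an adjusted P of 0.103. RNU1-4 had 217 and 224 TPM and then 264 and 411 TPM, a difference of 0.58 ± 0.22 with an adjusted P of 0.158. The groups were apart for each of them, and none reached the fold of 1.5 on the log2(TPM + 1) scale of the test. For RNU1-4 the ratio of the group means in TPM was 1.53. With median ratio scaling the differences of RNU1-3, RNU1-1 and RNU1-4 were 0.17, 0.09 and 0.43. With FPKM they were 0.22, 0.14 and 0.47. The unadjusted limma P lay between 0.117 and 0.598 in these fits. With quantile scaling the differences were 0.28, 0.30 and 0.54. RNU1-2, named because it was called, had 122 and 166 TPM and then 182 and 277 TPM (0.66 ± 0.25, adjusted P 0.165). Its call was lost without control 1, without the second labelled library, with a pseudocount of 0.1, FPKM, coverage, every other scaling, no filter or no trend. The 6 copies of one sequence summed to 3797 and 3785 TPM in the controls and to 4503 and 5135 TPM under the label, so the controls lay close together and the labelled libraries did not. RNU1-27P had 187 and 236 TPM and then 270.1 and 332 TPM, a difference of 0.51 ± 0.16 with an adjusted P of 0.12. Its neighbour RNU1-28P, identical to it in and around the gene, had overlapping groups, with 14.2 and 12.8 TPM against 14.1 and 12.4 TPM.

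The U2 family changed little at its main locus. RNU2-2P had 4571 and 5135 TPM in the controls and 5156 and 5489 TPM under the label, a difference of 0.13 ± 0.08 with an adjusted P of 0.33 that turned to -0.01 with median ratio scaling. RNU2-64P had 3.18 and 4.03 TPM and then 5.26 and 6.21 TPM, a difference of 0.55 ± 0.16 with an adjusted P of 0.102. RNU2-27P had 3.41 and 2.81 TPM and then 4.12 and 4.63 TPM, a difference of 0.39 ± 0.14. No U2 locus passed the call on the log2(TPM + 1) scale. For RNU2-64P the ratio of the group means in TPM was 1.59, and it was called higher with a pseudocount of 0.1 or with coverage (0.66 in each). With FPKM and the other scalings it was 0.40 to 0.50 and not called.

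Of the U4 genes, RNU4-2 moved more than its close copy. RNU4-2 had 266 and 265 TPM in the controls and 411 and 404 TPM under the label, a difference of 0.62 ± 0.07 with an adjusted P of 0.0202. Its replicates lay close together in both groups, and leaving out any single library left the difference between 0.60 and 0.63. With FPKM, median ratio, quantile or protein-coding scaling it was 0.47 to 0.57 and no longer reached the fold. RNU4-1 had 231 and 255 TPM and then 309.9 and 303 TPM, a difference of 0.34 ± 0.08 with an adjusted P of 0.0805. The difference between the responses of these 2 genes was not tested. RNU4-47P, an incomplete copy in an intron of SEC14L1 on the opposite strand, had 1.54 and 2.87 TPM and then 1.03 and 0.933 TPM, a fall by 0.66 ± 0.23 with an adjusted P of 0.14. It was not called without control 2, with a value of -0.36, without either labelled library or with no filter. The copies RNU4-24P, in an intron of CDK17 on the same strand, and RNU4-25P, which overlaps PVT1, lay between 0.972 and 1.74 TPM in the 4 libraries, with overlapping groups.

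The U5 family held 3 of the 8 loci called higher, and 6 of its 8 loci had groups that did not overlap, all of them higher under the label. Over all genes 8.61% were called higher and 39.9% were apart and higher. With FPKM, quantile or protein-coding scaling 2 U5 loci were called, and with the median ratio 1. RNU5E-1, the most abundant, had 54.3 and 74.8 TPM in the controls and 82.6 and 108.9 TPM under the label, a difference of 0.57 ± 0.21 that missed the fold (adjusted P 0.157). RNU5A-1 had 44.7 and 56.8 TPM and then 78.3 and 86.0 TPM, a difference of 0.69 ± 0.14 with an adjusted P of 0.0559. RNU5B-1 had 31.4 and 38.9 TPM and then 49.5 and 59.6 TPM, a difference of 0.62 ± 0.15 with an adjusted P of 0.0794. RNU5A-1 lost its call with median ratio scaling and without control 1. RNU5B-1 lost it with FPKM, each of the other 3 scalings, without control 1 and without the second labelled library. In each of these genes control 1 lay below control 2, and both lay below the labelled libraries. RNU5A-8P, a copy in an intron of HHAT on the opposite strand, had 7.14 and 12.5 TPM and then 22.4 and 24.8 TPM, and its difference of 1.23 ± 0.26 was the highest of the 44 loci (adjusted P 0.0577). It kept its call under every other scaling, unit and filter and without each library, with values of 0.87 to 1.59 in the last case, except for the adjusted threshold. HHAT itself had 3.25 and 3.65 TPM in the controls and 6.98 and 5.03 TPM under the label, and its part in the level of RNU5A-8P was not tested. RNU5D-1 had 15.1 and 16.9 TPM and then 17.2 and 19.8 TPM (0.20 ± 0.13), and RNU5E-4P had 5.39 and 4.93 TPM and then 5.88 and 6.35 TPM (0.21 ± 0.12), both apart and not called. RNU5E-6P had 25.5 and 38.4 TPM and then 20.8 and 36.3 TPM, and RNU5F-1 had 19.8 and 27.5 TPM and then 25.1 and 25.5 TPM, so both overlapped between the groups. The 8 loci thus differed by -0.18 to 1.23, with a median of 0.39.

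The U6 loci were low and went both ways. Of 20 tested, 15 differed by more than 0 (63.7% of all genes) and 2 were called higher (8.61% of all genes). The groups were apart and higher for 6 and apart and lower for 3, against 39.9% and 20.4% of all genes, and the values ran from -0.71 to 0.81 with a median of 0.13. The 7 copies of one sequence summed to 11.2 and 13.6 TPM in the controls and to 12.7 and 12.9 TPM under the label. Single copies of that sequence differed in direction, with RNU6-1 at 1.64 and 2.97 TPM and then 1.16 and 1.26 TPM, and RNU6-3P at 0.717 and 1.16 TPM and then 1.58 and 1.90 TPM. Neither was called, and their reads cannot be told apart within the gene. RNU6-2, the most abundant of the 7, had 4.41 and 4.04 TPM and then 4.73 and 4.57 TPM, a difference of 0.11 ± 0.12 that turned to -0.01 with median ratio and -0.04 with quantile scaling. RNU6-8 had 8.41 and 6.85 TPM and then 6.17 and 2.82 TPM, a value of -0.71 ± 0.32 with an adjusted P of 0.217 that was not called. It was called lower with median ratio scaling (-0.85), with quantile scaling (-0.86) and with the replicate block. The value of RNU6-8 ran from -1.17 to -0.26 when each library was left out. RNU6-26P had 1.89 and 3.71 TPM and then 6.80 and 4.34 TPM, a difference of 0.81 ± 0.31 (adjusted P 0.164). Its host DCBLD2 had 139.8 and 155 TPM and then 202 and 181 TPM, higher in the same libraries, and its part was not tested. RNU6-638P had 0.310 and 0.868 TPM and then 1.83 and 1.31 TPM, a difference of 0.71 ± 0.22 (adjusted P 0.119), and its host CYTH1 had 30.1 and 31.0 TPM and then 42.5 and 31.4 TPM. The calls of RNU6-26P and RNU6-638P were both lost without control 1, with values of 0.46 and 0.45. That of RNU6-26P was also lost without either labelled library, with a pseudocount of 0.1, FPKM, coverage, quantile or protein-coding scaling, with no filter and with the replicate block. That of RNU6-638P was also lost with FPKM, and it could not be tested without either labelled library. RNU6-762P overlapped between the groups, with 0.617 and 1.41 TPM and then 0.897 and 1.11 TPM.

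Of the U7 loci, RNU7-75P had 1.48 and 0.324 TPM in the controls and 2.68 and 2.09 TPM under the label, a difference of 0.90 ± 0.32 with an adjusted P of 0.152. Its call was lost without control 2, with a value of 0.44, and without either labelled library, and the value was 1.35 without control 1. It was also lost with a pseudocount of 0.1, FPKM, coverage, every other scaling and no filter. RNU7-49P, in an intron of COPB1 on the opposite strand, had 0.600 and 0.684 TPM and then 2.13 and 0.632 TPM, so a single labelled library carried its higher level.

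The overexpression comparison asked how added U11 changes gene expression, and 10 of the 46 loci reached 1 TPM in at least 2 of its 8 libraries. None was called, where 0.767% of the 15768 genes tested were called higher and 1.16% lower, and none of the 10 had an unadjusted P under 0.05 (6% of all genes). No U5 locus and no copy with the full U1 sequence was high enough to be tested. RNU2-27P had 2.03 and 4.25 TPM in its controls, with a lowest of 3.00, a median of 4.98 and a highest of 6.42 TPM in the 6 libraries labelled U11 overexpression and a difference of 0.50 ± 0.29 with an adjusted P of 0.898. It was called without the second control, with a value of 0.90. RNU6-26P had control levels of 5.94 and 8.17 TPM and lay between 3.12 and 7.95 TPM under the overexpression label, with a median of 6.39 TPM (-0.24 ± 0.27). RNU6-8 stood at 6.06 and 3.36 TPM and between 1.01 and 4.75 TPM, with a median of 2.82 TPM (-0.62 ± 0.38). RNU6-762P stood at 0.928 and 0.746 TPM and between 0.852 and 2.55 TPM, with a median of 1.46 TPM (0.46 ± 0.28). RNU4-47P stood at 2.08 and 0.455 TPM and between 0.884 and 1.56 TPM, with a median of 0.999 TPM and a difference of less than 0.01 whose sign changed with the scaling. RNU7-75P stood at 1.27 and 0.888 TPM and between 0.0908 and 1.01 TPM, with a median of 0.407 TPM (-0.56 ± 0.25, adjusted P 0.843). Since U11 in line 79 lay within the range of the controls, the fit was repeated without its 2 libraries, a choice made after seeing the data. Of 8 loci then tested, none was called; RNU2-27P had a value of 0.58 and RNU7-75P one of -0.63, and RNU1-39P could not be tested. In all 10 loci the groups overlapped with the 6 libraries, where 4.62% of all genes were apart and higher and 5.24% apart and lower.

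RNU1-39P was either present or nearly absent, by library. It had 1.88 and 2.29 TPM in the controls of the knockout and 0.0581 and 0.0740 TPM under the label U11 knockout, a fall by 1.53 ± 0.13 on the log2(TPM + 1) scale with an adjusted P of 0.0128. With a pseudocount of 0.1 in place of 1 the value was -3.71. In the overexpression comparison it had 2.98 TPM in control 1 and 0.117 TPM in control 2. The libraries of line 79 had 1.64 and 2.90 TPM, those of line 86 had 0.173 and 0.110 TPM, and those of line 87 had 0.220 and 0.122 TPM. The level thus lay between 1.64 and 2.98 TPM in 5 of 12 libraries and between 0.0581 and 0.220 TPM in the other 7, the same way in both batches for each line but not for the controls. The overexpression difference was -0.38 ± 0.61 and turned to 0.54 without control 1. ZNF354B, whose untranslated exon holds the locus, had 4.10 and 7.08 TPM in the controls of the knockout, 5.69 and 4.76 TPM under the label and 8.56 to 12.9 TPM in the other 8 libraries, with no such gap. Reads of the 2 cannot be told apart here.

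**Figure D5:**
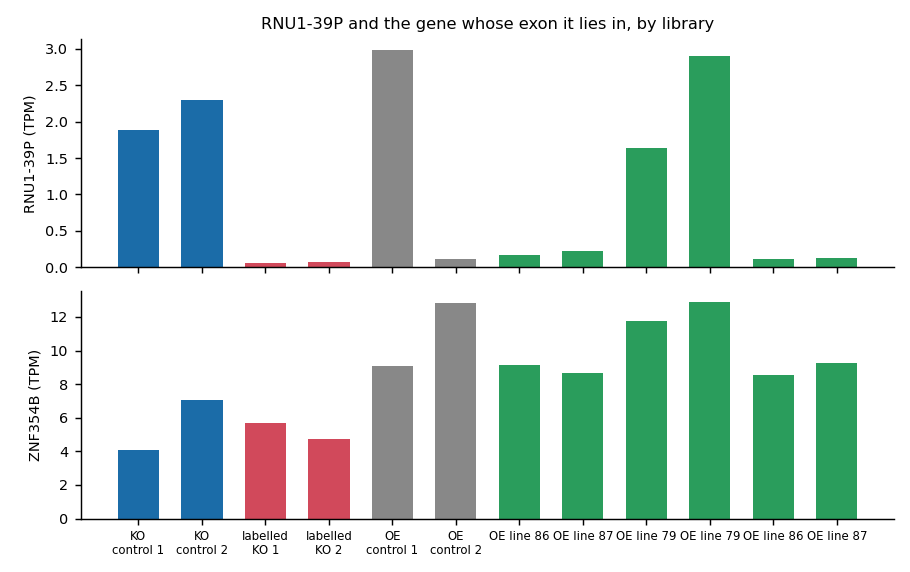
Level of RNU1-39P (upper panel, TPM) and of ZNF354B (lower panel, TPM) in each of the 12 libraries; KO stands for the knockout comparison, OE for the overexpression comparison, and numbers name the replicate of a control or labelled library and the line of an overexpression library. RNU1-39P lies at 1.64 TPM or more in 5 libraries and at 0.220 TPM or less in 7, while ZNF354B lies between 4.10 and 12.9 TPM throughout.

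Few of the genes for proteins that make, carry and bind these RNAs were called. Of 108 genes on 9 lists, all were tested, none was called higher and 2 were called lower in the knockout comparison, while 20 had an unadjusted P under 0.05. Over all genes tested these shares were 8.61%, 3.15% and 30.1%. No gene was called on the lists of U1 snRNP proteins (3 genes), U2 snRNP proteins (12), U4/U6 and U5 snRNP proteins (16), core Sm proteins (8), U6 LSM proteins and U6 maturation (13), U7 snRNP and histone mRNA processing (10) and snRNA transcription with SNAPc (13). Of 14 subunits of Integrator, the complex that cuts the 3′ end of snRNA precursors, INTS8 was lower, with 28.7 and 31.7 TPM in the controls and 20.2 and 14.9 TPM under the label (-0.77 ± 0.17, adjusted P 0.064). Of 19 genes for snRNA export, cap and assembly, GEMIN8, part of the SMN complex that loads the Sm ring, was lower, with 6.45 and 6.85 TPM and then 3.77 and 3.92 TPM (-0.66 ± 0.12, adjusted P 0.0441). The median difference of the 108 genes was -0.02, against 0.11 over all genes tested. In the overexpression comparison none of the 108 was called, 1 had an unadjusted P under 0.05, and the median was -0.01. Over all genes 0.767% were called higher, 1.16% were called lower and 6% had such a P. None of the 108 was called without line 79 either.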

How the data were processed

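RNA of T24 cells was sequenced in 12 libraries, and the members and gene lists were chosen with earlier results of these data known. The authors trimmed reads with fastp, aligned them to hg38 with Hisat2 and used Stringtie per library, and they deposited for each gene the coverage, the FPKM and the TPM. No read counts were used, so only the spread between libraries gives the precision, and no interval of a single value was computed. Aligned bases came to 9.07 to 15.3 gigabases per library. Handling of reads with several equal matches and strand in counting are not given in the sources used here.

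Members were the genes with a U1, U2, U4, U5, U6 or U7 name, without U4atac and U6atac, at a mean of at least 1 TPM over the 4 libraries of the knockout comparison. Tests used limma (version 3.58.1, R 4.3.3) with lmFit and eBayes with trend on log2(TPM + 1), for genes that reached 1 TPM in at least 2 libraries of the comparison. Genes were called at an unadjusted P under 0.05 and a fold of at least 1.5, with adjustment (Benjamini-Hochberg) over all genes tested. The test was checked on simulated data. The changed genes there were drawn only from more abundant genes, and identical copies were not simulated. The check thus does not reach the low loci or the copies of one sequence.

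Named loci were the 3 most abundant of each family, up to 5 called in each direction, those at 1 TPM or more in the other 8 libraries, the 3 loci on each side of the minimum, and the called gene of each protein list. All other loci with values were named after these were seen. Overlaps came from GENCODE 44, identities from global alignment (Biopython 1.88), and sequences from hg38. Alternatives were the pseudocount, unit, scaling, filter, trend, block and leaving out each library. Leaving out line 79 was added after seeing the data. Some sequences and overlapping genes are not reported here.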

Additional observations from a re-analysis of the deposited data

How the results depend on the processing

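In the knockout comparison, 8 loci were called higher and 2 lower. The number called higher was 1 with adjusted P, 2 with FPKM, 3 with median ratio, quantile or protein-coding scaling, 5 with no filter, and 3 to 14 when each library was left out. The number called lower was 1 with adjusted P or no filter, 4 with median ratio or quantile scaling, 0 with at least 1 TPM in every library (where RNU1-39P could not be tested), and 1 to 2 when each library was left out. RNU1-39P could not be tested without either control of the knockout, since only 1 library then reached 1 TPM. With the replicate number as a block, 7 loci were called higher and 3 lower, with RNU6-26P lost and RNU6-8 gained. Over all genes, same-numbered libraries did not deviate together (r = 0.02 over 14356 genes), so the numbers were not taken as pairs. That value is not for the snRNA loci. RNU5E-1 was higher in the second library of both groups, RNU1-3 only under the label. With the block, the unadjusted limma P of RNU5E-1 went from 0.0442 to 0.00425. That of RNU2-27P went from 0.0423 to 0.101. Signs of values near 0 turned for RNU2-2P (-0.015 with median ratio scaling), RNU6-2 (-0.011 with median ratio, -0.044 with quantile) and RNU6-762P (-0.027 with FPKM, -0.045 with median ratio, -0.14 with quantile, -0.007 with protein-coding scaling, and -0.27 to 0.094 when each library was left out). The ratio of the U1 sum was 1.15 and that of the U2 sum 0.994 with median ratio scaling. The ratio of the U4 sum was 1.30 with FPKM, 1.26 with median ratio scaling and 1.53 for RNU4-2 alone, the reference copy. On the protein lists, 1 gene was called higher with coverage and 0 to 9 when each library was left out (9 without control 2), and 1 was called lower with adjusted P or coverage.

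In the overexpression comparison, no locus was called; 1 was called higher without control 2 (0 to 1 over all libraries left out) and 1 lower with coverage, and on the protein lists 0 to 1 gene was called higher (1 without control 1). Leaving out both libraries of line 79, chosen after seeing the data, gave 0 called loci of 8 tested and 0 of 108 genes on the protein lists. RNU4-47P turned to 0.13 with a pseudocount of 0.1, 0.18 with coverage, 0.0056 with median ratio, 0.0895 with quantile scaling and 0.0045 with the mean of each line, and ranged from -0.55 to 0.54 when each library was left out. RNU1-39P ranged from -1.29 to 0.54. The cause of these changes was not tested. Values of single loci under the alternatives, the adjusted threshold included, were counted for the 22 loci named by rule, so without RNU1-2. Of these values, 349 kept their direction and stayed called or stayed not called. A further 45 kept the direction and lost the call, 15 kept the direction and gained it, and 19 changed sign. The 349 include loci that were never called, so they are no count of calls that held. In the knockout comparison, coverage went down to 0.588 at RNU1-39P, to 3.19 at RNU6-638P and to 3.39 at RNU7-75P. With 2 libraries against 2, the differences of RNU1-39P and of the U6 and U7 loci thus rest on few reads.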
